A study of Mus musculus with 48 samples.

Results

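AP-1 is a family of dimeric transcription factors built from the products of the Fos genes (Fos, Fosb, Fosl1 and Fosl2) and the Jun genes (Jun, Junb and Jund). These 7 genes were taken by their symbols from the 55450 genes listed in both expression tables of the study, and each symbol matched 1 gene. RNA was sequenced during induced browning of primary white preadipocytes and of mouse embryonic fibroblasts (MEFs), in 48 libraries, 24 of each cell type, and each day held 3 libraries of WT and 3 of DKO cells. The preadipocytes were collected at days 0, 3, 6 and 9 and the MEFs at days 0, 4, 8 and 12.

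All mice were of the C57BL/6 strain. WT cells were wild type, and DKO cells were Hmgn1-/- and Hmgn2-/-, lacking a pair of nucleosome-binding proteins throughout the animal and not in fat cells alone. Preadipocytes came from the collagenase-digested inguinal white fat (iWAT) of mice 8 to 12 weeks old and were grown on collagen. MEFs came from mid-gestation embryos and were used within passage 3. Per the labels, cells were left for 2 days at confluence (the methods give this delay for MEFs alone) and then received insulin, dexamethasone, IBMX, T3 and rosiglitazone, for 4 days (preadipocytes) or 8 days (MEFs), and afterwards insulin and T3 alone for 4 days. The study calls its replicates biological, but neither labels nor methods say whether the 3 libraries of a group came from separate mice or from separate cultures, so the p-values measure the spread between these libraries.

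A Fos protein cannot pair with itself and needs a Jun partner, whereas Jun proteins also pair with each other and with ATF, MAF and BATF proteins. The dimers bind the TPA response element (TRE) or the cAMP response element (CRE). Fos, Fosb, Jun and Junb are immediate-early genes, switched on within minutes by growth factors, cAMP or stress, while Fosl1 (Fra-1) and Fosl2 (Fra-2) lack the strong activation domain of Fos and are induced later, in part by AP-1 itself. Jund is transcribed steadily in many resting cells. In fat cell precursors AP-1 answers the inducing hormones, and in adipocytes Fosl2 has been linked to repression of Pparg.

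The promoters are shown because the inducing medium contained IBMX, which raises cAMP. RefSeq windows of 300 bases (250 before to 50 after the start, GRCm38.p6) were held for 6 of the 7 members. The last 200 bases are printed for the 4 members with a match, 5′ to 3′ on the coding strand. Capitals mark the core CRE site TGACG and, in Jun, the Jun-type site TGACATCA.
Fos (chr12:85473740-85473939, plus strand): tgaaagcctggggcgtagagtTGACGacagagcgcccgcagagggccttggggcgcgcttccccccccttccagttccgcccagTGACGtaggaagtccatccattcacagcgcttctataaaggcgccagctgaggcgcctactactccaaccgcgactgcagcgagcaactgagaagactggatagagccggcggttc
Fosb (chr7:19309996-19310195, minus strand): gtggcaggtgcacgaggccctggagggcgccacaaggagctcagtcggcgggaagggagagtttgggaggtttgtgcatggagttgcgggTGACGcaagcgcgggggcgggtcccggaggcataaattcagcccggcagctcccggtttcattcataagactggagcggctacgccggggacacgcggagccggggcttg
Junb (chr8:84978699-84978898, minus strand): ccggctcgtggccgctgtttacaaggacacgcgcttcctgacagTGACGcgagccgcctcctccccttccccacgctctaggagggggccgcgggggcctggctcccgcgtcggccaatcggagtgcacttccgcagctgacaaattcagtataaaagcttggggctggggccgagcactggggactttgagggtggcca
Jun (chr4:95052173-95052372, minus strand): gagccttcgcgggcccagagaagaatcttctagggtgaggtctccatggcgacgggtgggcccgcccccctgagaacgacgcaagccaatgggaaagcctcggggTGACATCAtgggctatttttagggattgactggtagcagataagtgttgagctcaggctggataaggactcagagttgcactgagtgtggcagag
Fos held the core site at 129 and 66 bases upstream of its start, Fosb at 60 bases and Junb at 106 bases. Searched on both strands, TGACG stood in 20.8% of the 32851 RefSeq windows of all genes, so a match is common. The Jun-type site TGACATCA, 45 bases upstream of the start of Jun, stood in 3.62% of windows. The complete CRE TGACGTCA (1.79% of windows, each also counted under TGACG), the TRE TGANTCA (7.81%) and the CArG box (1.63%) had no match in a member's window. These are matches of letters in a short window, not measured binding sites.

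All 7 genes are protein-coding in GENCODE M21 (mm10). Fos lies at chr12:85473890-85477273, Fosb at chr7:19302696-19310051, Fosl1 at chr19:5447547-5455946 and Fosl2 at chr5:32135801-32157842. Jun lies at chr4:95049034-95052222, Junb at chr8:84974484-84978718 and Jund at chr8:70698949-70700616. Exons of Ccdc85b, Junos, Prdx2 and Gm11175 overlap Fosl1, Jun, Junb and Jund on the opposite strand. The libraries were strand-specific, but the strand setting of the counting is not given in the sources used here, so reads of these partners may be included.

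Libraries held 19809356 to 36006679 counts in preadipocytes (median 23978832) and 18962481 to 33083194 in MEFs (median 23901641). Hmgn2 had at most 10 counts in any DKO library and at least 744 in any WT library, whereas Hmgn1 kept 69.7 to 114 CPM in DKO MEFs and 73.7 to 97.7 CPM in DKO preadipocytes, and counts per gene do not show which of its exons were read. Levels are in CPM, counts scaled to a common library total with TMM. All 8 fibroblast markers were detected in every group. The 9 macrophage and leukocyte markers were also detected in every group, with a summed level of 39.0 to 476 CPM in preadipocytes at days 0 and 3, 1427 to 10023 CPM at days 6 and 9 and 3122 to 9346 CPM in MEFs. Endothelial markers summed to 4.22 to 35.4 CPM in preadipocytes and 5.75 to 39.9 CPM in MEFs, and epithelial and glial markers to 2.80 to 61.4 and 41.3 to 88.2 CPM, with Epcam, Krt5, Krt14 or Krt8 at 0 in some groups. Muscle and pericyte markers summed to 2181 to 3883 CPM in preadipocytes at day 0 and 251 to 773 CPM at day 3. At days 6 and 9 they summed to 17.5 to 148 CPM, and in MEFs to 51.9 to 789 CPM. The part of these other cells in the results was not tested.

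A set of 4 MEF libraries went against their day labels. The expression profile of the library labelled WT day 4 replicate 1 correlated better with the WT day 8 libraries (r = 0.994 over 16996 genes) than with the other WT day 4 libraries (r = 0.983), and that labelled DKO day 4 replicate 3 likewise (0.994 against 0.988). The libraries labelled WT day 8 replicate 2 (0.993 against 0.977) and DKO day 8 replicate 3 (0.993 against 0.977) were in turn nearer to the day 4 libraries of their genotype. Adipoq, a marker of mature fat cells, stood at 88.0 CPM in the first and 137 CPM in the second, and at 19.7 and 18.4 CPM in the last pair. The remaining day 4 libraries read 4.84 and 3.82 CPM in WT and 39.3 and 32.5 CPM in DKO cells. The remaining day 8 libraries read 250 and 244 CPM in WT and 387 and 264 CPM in DKO cells. So 88.0, 137 and 19.7 CPM lay between the days of their genotype, and 18.4 CPM lay below both. The other 44 libraries were nearest to their own group. Labels were kept. Results of the members at MEF days 4 and 8 were computed with all libraries and without these 4, and the gene lists with all libraries only. These 4 were picked for lying nearer to the other day, so leaving them out favors a difference between days 4 and 8. Pairs of replicates differed by a chi-square per degree of freedom of 6.93 to 78.1 in preadipocytes and 2.16 to 168 in MEFs, where sampling noise alone gives about 1. The lowest MEF values were 2.18 to 3.58 among the WT day 12 libraries and 2.16 between WT day 8 replicates 1 and 3. DKO day 12 replicates 1 and 3 (3.01) and WT day 0 replicates 1 and 3 (3.33) were equally close. Such values mark libraries that hardly differ from each other, but no pair was within sampling noise and all were counted separately.

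Fosl2 was the most abundant member per length in undifferentiated cells. Levels were divided by the merged exon length (2.35 kb for Fos, 6.24 kb for Fosb, 2.03 kb for Fosl1, 9.68 kb for Fosl2, 3.19 kb for Jun, 2.30 kb for Junb and 1.67 kb for Jund) so that genes could be compared. In WT preadipocytes at day 0 the level of Fosl2 was 23.0 ± 0.33 CPM per kb (SD, n = 3), above the range of every other member. Jun (14.3 ± 2.7), Junb (14.2 ± 2.9), Jund (10.9 ± 2.4), Fosl1 (7.97 ± 1.6) and Fos (5.99 ± 1.1 CPM per kb) followed, each overlapping its neighbor in this order, and Fosb was far below at 0.416 ± 0.054 CPM per kb. In WT MEFs at day 0 Fosl2 (20.5 ± 0.18) and Jun (18.1 ± 0.59) led without overlap, followed by Jund (8.79 ± 1.0), Fos (5.96 ± 0.24) and Junb (3.87 ± 0.14), while Fosl1 (0.477 ± 0.15) was close to Fosb (0.291 ± 0.045 CPM per kb). Fosb had the fewest reads, down to 7 expected counts in a library, so its values carry the largest counting error.

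The order per length changed by the end of the time course. In CPM not divided by length Fosl2 stayed highest, with a mean of 169 against 56.2 for Fos in DKO MEFs at day 12. In WT preadipocytes at day 9 Fos had the highest mean, 23.0 ± 14 CPM per kb, overlapping Fosl2 at 16.1 ± 0.41. In DKO preadipocytes at day 9 Fos stood at 18.9 ± 13, Fosl1 at 14.8 ± 3.9 and Fosl2 at 14.2 ± 1.8 CPM per kb, all overlapping. In DKO MEFs at day 12 Fos, at 23.9 ± 7.9 CPM per kb, was above Fosl2 (17.5 ± 0.54) in every library, whereas in WT MEFs of that day Fosl2 (22.2 ± 0.40) and Jun (15.2 ± 0.96) remained above Fos (9.44 ± 0.27). The share of Fos in the summed level of the 7 genes was 15.3% in WT and 33.5% in DKO MEFs at day 12. In preadipocytes it went from 7.89% (WT) and 4.73% (DKO) at day 0 to 24.2% and 22.6% at day 9.

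**Figure D1:**
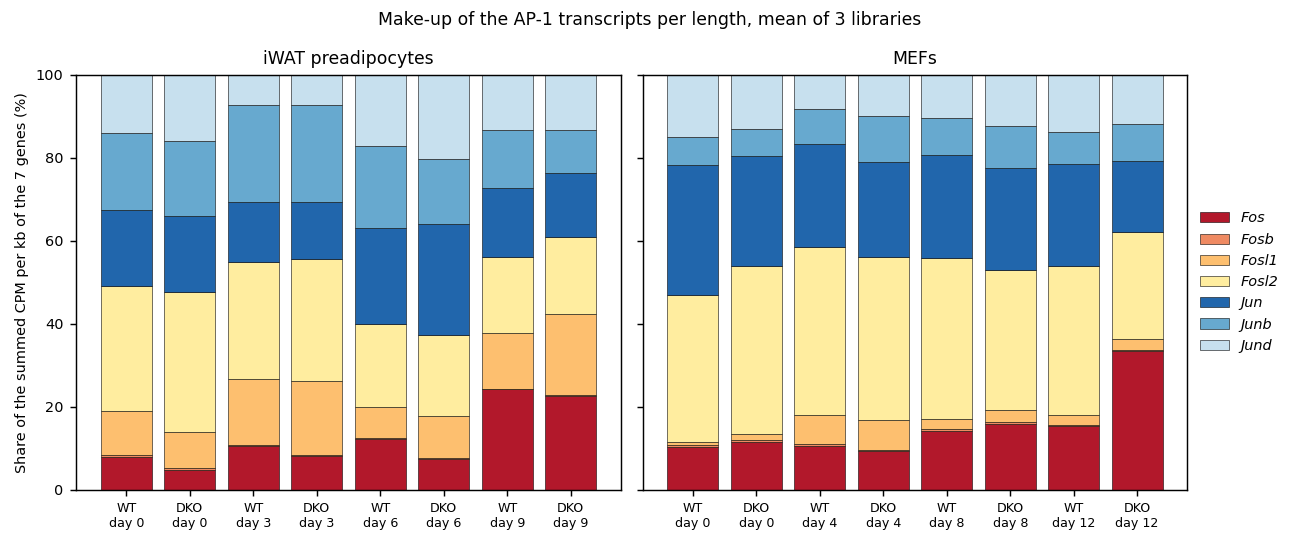
Share of each gene in the summed CPM per kb of the 7 AP-1 genes (y axis, percent), mean of 3 libraries, for each genotype and day (x axis) in iWAT preadipocytes (left) and MEFs (right). Warm colors are Fos genes and blues are Jun genes. The Fos share reaches 33.5% in DKO MEFs at day 12, and the Fosl1 share in MEFs is highest at day 4 (7.02% in WT, 7.38% in DKO).

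In preadipocytes the Fos genes did not move as a block. Fosl1 and Junb were high at day 3 and low at day 6, Fosl2 and Fosb were lower at day 6 than at day 3, and Fos had its highest levels at day 9. Days were compared with edgeR's quasi-likelihood test on all 24 libraries of the cell type, and a call needed both a 1.5-fold change or more and an adjusted p (Benjamini-Hochberg, over all tested genes) under 0.05. Such bulk RNA cannot separate a change in each cell from a change in the proportion of cells, and the rise of adipocyte markers (from 21.1 to 24.9 CPM at WT day 0 to 16964 to 17384 CPM at WT day 9) and of macrophage markers runs through the same days. So does the fall of muscle and pericyte markers by day 6.

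Fosl1, the Fra-1 gene, went up, down and up again. Its WT libraries read 14.8, 19.9 and 14.0 CPM at day 0, 44.3, 39.3 and 20.4 CPM at day 3, 9.13, 12.1 and 8.31 CPM at day 6, and 22.6, 23.2 and 24.9 CPM at day 9. Its DKO libraries read 15.6, 14.4 and 10.47 CPM, then 43.9, 39.0 and 22.0 CPM, then 9.23, 19.3 and 9.16 CPM, and at day 9 22.1, 38.0 and 30.2 CPM. Every day 3 library was above every day 0 and day 6 library of its genotype, and replicate 3 was the lowest of day 3 in both genotypes. From day 0 to day 3 Fosl1 rose 2.14-fold in WT (log2 fold change 1.09 ± 0.32 (SE), adjusted p = 0.011) and 2.59-fold in DKO cells (1.37 ± 0.32, adjusted p = 0.0019). From day 3 to day 6 it fell 3.51-fold in WT (adjusted p = 1.1e-04) and 2.79-fold in DKO cells (adjusted p = 6.0e-04). From day 6 to day 9 it rose again, 2.39-fold in WT (adjusted p = 0.0087) and 2.40-fold in DKO cells (adjusted p = 0.010). The last DKO call was lost without day 6 replicate 1 (adjusted p = 0.052), without day 6 replicate 3 (0.056) and without day 9 replicate 2 (0.054).

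Fosl2, the Fra-2 gene, held the highest CPM of the family at every day of preadipocytes, and its only called step was a fall from day 3 to day 6. Its WT libraries read 222, 226 and 219 CPM at day 0, 315, 296 and 246 CPM at day 3, 137, 118 and 121 CPM at day 6, and 158, 158 and 152 CPM at day 9. Its DKO libraries read 228, 281 and 229, then 296, 247 and 259, then 118, 108 and 113, and at day 9 124, 157 and 131 CPM. No library of days 6 or 9 reached the level of any library of days 0 or 3. Under the fold threshold, WT cells rose from day 0 to day 3 (0.36 ± 0.10, adjusted p = 0.010) and from day 6 to day 9 (0.32 ± 0.11, adjusted p = 0.034), without overlap of libraries. The same DKO steps were 0.12 ± 0.10 (adjusted p = 0.37) and 0.28 ± 0.11 (adjusted p = 0.065). The fall from day 3 to day 6 was 2.28-fold in WT (log2 fold change -1.19 ± 0.11, adjusted p = 1.6e-08) and 2.36-fold in DKO cells (-1.24 ± 0.11, adjusted p = 6.0e-09). At day 9 Fosl2 was 1.79-fold below day 0 in DKO cells (adjusted p = 6.6e-07), and in WT cells the difference of -0.51 ± 0.11 on the log2 scale passed the p-value (adjusted p = 2.6e-04) but not the fold threshold. This WT difference passed both with limma-voom (-0.61) and with scaling by library size (-0.67).

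Fosb, an immediate-early gene, was scarce and lower at day 9 than at day 0, with its largest fall from day 3 to day 6. Its WT libraries read 2.45, 2.35 and 2.98 CPM at day 0, 1.85, 1.80 and 1.28 CPM at day 3, 0.864, 0.501 and 0.605 CPM at day 6, and 1.20, 0.957 and 1.10 CPM at day 9. Its DKO libraries read 1.9996, 2.57 and 1.77 CPM at day 0, 1.28, 1.495 and 1.301 CPM at day 3, 0.594, 0.715 and 0.308 CPM at day 6, and 0.673, 0.755 and 0.562 CPM at day 9. All day 9 libraries were below all day 0 libraries in both genotypes. The fall from day 3 to day 6 was 2.48-fold in WT (-1.31 ± 0.26, adjusted p = 2.7e-04) and 2.54-fold in DKO cells (-1.34 ± 0.28, adjusted p = 2.9e-04), and over days 0 to 9 it was 2.38-fold in WT (adjusted p = 2.4e-04) and 3.18-fold in DKO cells (adjusted p = 1.4e-05). From day 6 to day 9 of WT cells Fosb was at 0.72 ± 0.27 (adjusted p = 0.062), and every day 9 library lay above every day 6 library. This step was called without day 6 replicate 1 (0.95, adjusted p = 0.035) and with the replicate number as a block over all days (0.73, adjusted p = 0.043). It was not called with that block in a fit of days 6 and 9 alone (adjusted p = 0.059). The smaller step from day 0 to day 3 (-0.66 ± 0.25, adjusted p = 0.038 in WT, and -0.64 ± 0.25, adjusted p = 0.039 in DKO cells) was not stable. Its WT call was lost whichever of the 6 WT libraries was left out (adjusted p of 0.051 to 0.20), and its DKO call without any of 5 of the 6 DKO libraries (0.071 to 0.17, the exception being day 0 replicate 3).

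Fos, the prototype immediate-early gene, was highest at day 9, with a wide spread. Its WT libraries, in the order of replicates 1, 2 and 3, read 11.5, 16.8 and 14.0 CPM at day 0, 30.3, 23.2 and 23.6 CPM at day 3, 31.2, 15.4 and 10.9 CPM at day 6, and 91.1, 45.6 and 25.4 CPM at day 9. Its DKO libraries read 9.84, 6.47 and 9.23 CPM at day 0, 19.8, 16.2 and 17.7 CPM at day 3, 16.6, 11.5 and 4.45 CPM at day 6, and 73.3, 47.2 and 12.5 CPM at day 9. At days 6 and 9 the 3 libraries of each genotype stood in the same order by replicate number. Against day 0, Fos was 3.83-fold higher at day 9 in WT (1.94 ± 0.55, adjusted p = 0.0046) and 5.20-fold higher in DKO cells (2.38 ± 0.56, adjusted p = 0.0010). The step from day 6 to day 9 was 4.09-fold in DKO cells (2.03 ± 0.56, adjusted p = 0.015) and did not pass in WT (1.49 ± 0.54, adjusted p = 0.051). The DKO call of this step was lost without day 6 replicate 3 (1.65, adjusted p = 0.0705) and without day 9 replicate 1 (1.46, adjusted p = 0.092), with limma-voom (adjusted p = 0.053) and in a fit of days 6 and 9 alone (0.067). The WT step was called without day 6 replicate 1 (2.02, adjusted p = 0.028) and without day 9 replicate 3 (1.83, adjusted p = 0.029), and by DESeq2 (adjusted p = 0.017).

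Same-numbered libraries deviated together at this step, and at the step from day 0 to day 3 of DKO cells, so both were also fitted with the replicate number as a block, an alternative chosen after the data were seen. Both steps were picked for this pairing from the same libraries, so the blocked p-values and the pairs below are not independent support. How often such pairing arises by chance was not tested. With the block, Fos rose from day 6 to day 9 by 2.73-fold in WT (1.45 ± 0.11, adjusted p = 1.0e-05) and 3.85-fold in DKO cells (1.94 ± 0.12, adjusted p = 5.1e-06). In pairs of the same replicate number, Fos was higher at day 9 than at day 6 in 6 of 6, by 2.33 to 4.42 times. In the blocked step from day 0 to day 3 of DKO cells, Fos also passed (1.09 ± 0.11, adjusted p = 7.1e-04, against 0.12 without the block), while Fosb (adjusted p = 0.057), Junb (0.056) and Jund (0.066) did not.

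Among the Jun genes, Junb was highest at day 3, Jund fell to day 3 and rose to day 6 in DKO cells, and Jun, the strongest activator among them, stayed within a narrow range. Junb libraries read 40.5, 29.1 and 28.6 CPM at WT day 0, 68.2, 52.3 and 49.4 CPM at day 3, 31.5, 32.2 and 24.7 CPM at day 6, and 39.5, 26.9 and 21.9 CPM at day 9. In DKO cells they read 36.8, 24.02 and 34.3, then 45.3, 59.8 and 48.1, then 26.4, 21.1 and 17.4, and at day 9 23.4, 23.1 and 11.7 CPM. Each day 3 library lay above all libraries of the other days of its genotype. Junb fell from day 3 to day 6 by 1.92-fold in WT (-0.94 ± 0.26, adjusted p = 0.0038) and 2.36-fold in DKO cells (-1.24 ± 0.26, adjusted p = 3.9e-04). Its rise from day 0 to day 3 was called in WT (0.79 ± 0.26, adjusted p = 0.020) and in DKO cells (0.69 ± 0.26, adjusted p = 0.034), but leaving out WT day 0 replicate 2 (adjusted p = 0.075), WT day 0 replicate 3 (0.058), WT day 3 replicate 1 (0.062), DKO day 0 replicate 2 (0.14) or DKO day 3 replicate 2 (0.092) lost the call. At day 9 of DKO cells Junb was 1.64-fold below day 0 (-0.71 ± 0.26, adjusted p = 0.021), a call lost without day 0 replicate 1 (0.076) or day 9 replicate 3 (0.12).

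Jund read 22.3, 14.4 and 17.7 CPM at WT day 0, 15.9, 10.8 and 11.9 CPM at day 3, 17.3, 21.2 and 17.4 CPM at day 6 and 18.6, 19.3 and 20.5 CPM at day 9. In DKO cells it read 23.0, 15.0 and 23.2, then 7.74, 13.3 and 13.7, then 18.2, 23.2 and 19.99, and at day 9 14.9, 19.4 and 16.2 CPM. Each day 3 library of DKO cells lay below all other libraries of that genotype. In DKO cells Jund fell from day 0 to day 3 (-0.82 ± 0.21, adjusted p = 0.0036) and rose from day 3 to day 6 (0.83 ± 0.21, adjusted p = 0.0021). Both calls rested on the fold threshold without DKO day 3 replicate 1, where the log2 fold changes were -0.53 (adjusted p = 0.034) and 0.54 (adjusted p = 0.024). In WT cells the same steps were -0.50 ± 0.21 (adjusted p = 0.070) and 0.54 ± 0.21 (adjusted p = 0.034), and neither was called. The first was called without WT day 0 replicate 2 (adjusted p = 0.037) or day 3 replicate 1 (0.040), and the second without WT day 3 replicate 1 (0.013) or day 6 replicate 1 (0.038). The DKO effect on Jund moved by -0.32 ± 0.30 and 0.29 ± 0.30 at these steps (adjusted p = 0.95 and 0.69). A difference between the genotypes is therefore not shown. Jun ranged over 36.2 to 56.1 CPM in all 24 libraries, a 1.55-fold range, with no step called and differences between -0.46 ± 0.13 (DKO, day 6 to day 9, adjusted p = 0.016) and 0.31 ± 0.13 (DKO, day 3 to day 6, adjusted p = 0.040).

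**Figure D2:**
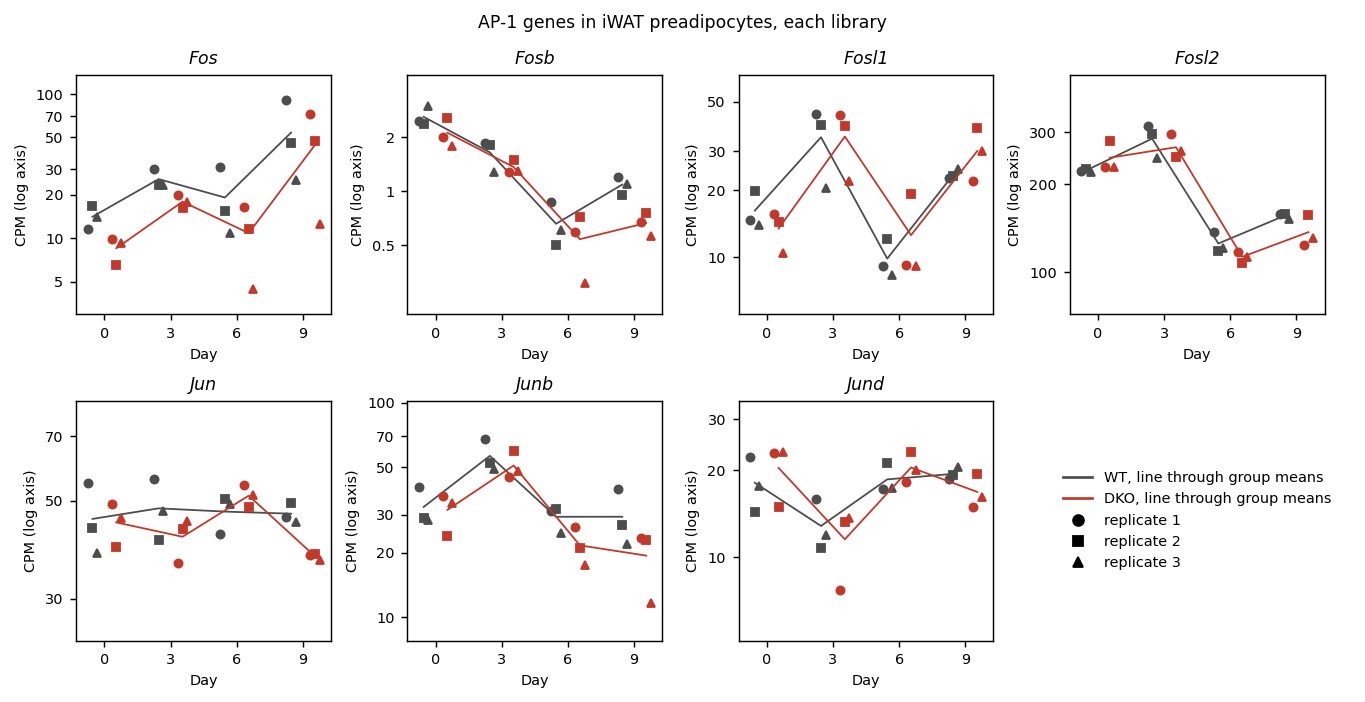
CPM of each AP-1 gene (y axis, log scale) in every preadipocyte library at days 0, 3, 6 and 9 (x axis), with WT in gray and DKO in red, symbols for replicate numbers and lines through the means of 3 libraries. Fosl2 lies at 108 to 158 CPM in all libraries of days 6 and 9, Fosl1 and Junb peak at day 3, and Fos spreads from 12.5 to 91.1 CPM at day 9.

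The number of members called was then read against all genes, since much of the transcriptome moved at these steps. From day 0 to day 3, 3 of the 7 members were called in WT, where 23.2% of all tested genes were called, and 4 in DKO cells, where 28.4% were. With the block, 2 members were called in that DKO step, against 29.8% of all genes. From day 3 to day 6, 4 members were called in WT (45.3% of all genes) and 5 in DKO cells (49.7%). From day 6 to day 9 it was 1 in WT (13.1%) and 2 in DKO cells (11%), and 2 in WT with the block (18.6%). Day 9 against day 0 gave 2 members in WT (51.8%) and 5 in DKO cells (56.4%). No test of the family against other genes was made. The median log2 fold change of the members from day 3 to day 6 was -0.94 in WT and -1.24 in DKO cells, beside -0.03 and 0.00 for all tested genes.

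In MEFs, a rise by day 4 was called for Fosl1 in both genotypes, for Fosl2 in WT cells alone and for Junb in DKO cells alone. Fos was highest in DKO cells at day 12. Fosl1 was below 4 CPM in all libraries of day 0. Its WT libraries, in the order of replicates 1, 2 and 3, read 0.875, 0.717 and 1.32 CPM at day 0, 5.57, 12.5 and 16.1 CPM at day 4, 1.39, 6.10 and 1.21 CPM at day 8, and 2.76, 3.63 and 2.16 CPM at day 12. Its DKO libraries read 0.670, 3.76 and 1.40 CPM at day 0, 11.1, 17.2 and 6.95 CPM at day 4, 0.730, 3.81 and 7.69 CPM at day 8, and 3.08, 5.66 and 3.15 CPM at day 12. The lowest day 4 library and the highest day 8 library of each genotype are the 4 libraries that went against their day labels. From day 0 to day 4 Fosl1 rose 11.7-fold in WT (3.55 ± 0.78, adjusted p = 0.0011) and 5.99-fold in DKO cells (2.58 ± 0.73, adjusted p = 0.0075), and without the 4 libraries by 14.7-fold (adjusted p = 9.9e-05) and 7.20-fold (adjusted p = 8.5e-04). The step from day 4 to day 8 was not called with all libraries (-1.96 ± 0.71, adjusted p = 0.16 in WT, and -1.51 ± 0.69, adjusted p = 0.28 in DKO cells). Without the 4 libraries Fosl1 fell at this step by 10.9-fold in WT (-3.45 ± 0.71, adjusted p = 0.0021) and 6.09-fold in DKO cells (-2.61 ± 0.66, adjusted p = 0.011), and leaving out WT day 8 replicate 2 alone was enough for the WT call (-3.12, adjusted p = 0.029). The choice of these libraries itself favors a difference between days 4 and 8, so the calls without them are not independent support for it.

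Fosl2 in MEFs rose to day 4 in WT cells and was lower again at day 8. WT libraries read 200, 197 and 197 CPM at day 0, 258, 312 and 324 CPM at day 4, 209, 224 and 209 CPM at day 8, and 211, 218 and 215 CPM at day 12. DKO libraries read 225, 234 and 261, then 282, 326 and 259, then 167, 188 and 237, and at day 12 165, 167 and 175 CPM. All WT day 4 libraries were above all other WT libraries, and the DKO day 12 libraries were below all DKO libraries of day 0. This DKO difference was -0.51 ± 0.11 (adjusted p = 9.6e-04), under the fold threshold, which it passed with limma-voom (-0.70), with scaling by library size (-0.74) and without the low-count filter (-0.599). The DKO step from day 0 to day 4 was 0.27 ± 0.11 (adjusted p = 0.052). The DKO effect on Fosl2 moved by -0.32 ± 0.15 at this step (adjusted p = 0.45), so a difference between the genotypes is not shown. The WT rise of 0.59 ± 0.11 (adjusted p = 2.2e-04) sat on the fold threshold and dropped below it, with an adjusted p of 0.0014 to 0.0020, without day 0 replicates 2 or 3 or day 4 replicates 2 or 3. Without the 4 libraries the WT rise was 0.68 ± 0.08 (adjusted p = 3.0e-06). The step from day 4 to day 8 was -0.48 ± 0.11 in WT (adjusted p = 0.052) and -0.55 ± 0.11 in DKO cells (adjusted p = 0.031, under the fold threshold). Without the 4 libraries it was called in WT (-0.60 ± 0.08, adjusted p = 8.2e-05) and in DKO cells (-0.78 ± 0.09, adjusted p = 9.8e-06), and in DKO cells also without day 4 replicate 3 alone (adjusted p = 0.018) or day 8 replicate 3 alone (0.0019).

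Fos and Fosb parted in the last MEF step of DKO cells. Fos read 14.7, 13.7 and 13.6 CPM at WT day 0, 15.9, 19.3 and 22.0 CPM at day 4, 16.9, 20.8 and 19.7 CPM at day 8, and 22.9, 21.7 and 22.0 CPM at day 12. In DKO cells it read 12.1, 20.3 and 17.9, then 15.5, 18.5 and 15.4, then 21.2, 22.4 and 23.3, and at day 12 43.6, 77.5 and 47.5 CPM. Each DKO day 12 library was above all other MEF libraries. Fos rose from day 8 to day 12 by 2.52-fold in DKO cells (1.33 ± 0.19, adjusted p = 1.8e-05), and the WT step was 0.21 ± 0.19 (adjusted p = 0.41). The DKO rise was 1.37 ± 0.22 (adjusted p = 1.6e-04) without the 4 libraries. Against day 0 it was 3.35-fold higher at day 12 in DKO (1.74 ± 0.19, adjusted p = 6.5e-07) and 1.58-fold higher in WT cells (0.66 ± 0.19, adjusted p = 0.0092), the WT rise falling to 0.52 and under the fold threshold when libraries were scaled by size alone.

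Fosb read 1.51, 1.89 and 2.06 CPM at WT day 0 and 0.838, 1.45 and 1.76 CPM at WT day 12, and 1.22, 1.66 and 1.04 CPM at DKO day 0, 1.56, 1.26 and 1.07 CPM at DKO day 8 and 0.634, 0.515 and 0.543 CPM at DKO day 12. The DKO day 12 libraries were the lowest of all 24. Fosb fell in DKO cells from day 8 to day 12 (-1.18 ± 0.30, adjusted p = 0.0041, and -1.30 ± 0.33, adjusted p = 0.0047, without the 4 libraries) and from day 0 to day 12 (-1.20 ± 0.30, adjusted p = 0.0031), and in WT cells the latter was -0.42 ± 0.27 (adjusted p = 0.25).

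Junb in MEFs was higher on average at day 4 than at day 0 in both genotypes, and with all libraries edgeR called the DKO step alone. It read 8.89, 8.57 and 9.23 CPM at WT day 0 and 11.2, 14.1 and 20.9 CPM at WT day 4, and 7.21, 14.6 and 5.85 CPM at DKO day 0 and 20.2, 26.6 and 13.3 CPM at DKO day 4. The groups did not overlap in WT and overlapped in DKO cells through day 0 replicate 2. The rise was called in DKO cells (1.12 ± 0.34, adjusted p = 0.011) and lost without day 0 replicate 1 (0.97, adjusted p = 0.053), day 0 replicate 3 (0.87, adjusted p = 0.066) or day 4 replicate 2 (0.86, adjusted p = 0.067). In WT it was 0.79 ± 0.34 (adjusted p = 0.060), and it was called without the 4 libraries (0.98 ± 0.36, adjusted p = 0.034) and without WT day 4 replicate 1 alone (adjusted p = 0.035). The WT step was also called by DESeq2 (adjusted p = 0.039), with scaling by library size (0.037) and with the replicate number as a block (0.0076). The DKO effect on Junb moved by 0.33 ± 0.47 at this step (adjusted p = 0.82), so a difference between the genotypes is not shown. Junb at day 12 against day 0 of DKO cells (0.71 ± 0.34, adjusted p = 0.099) was called without day 0 replicate 2 (1.21, adjusted p = 0.0073). Jun ranged over 34.1 to 72.4 CPM and Jund over 7.93 to 18.8 CPM in the 24 MEF libraries with no step called, and without the 4 libraries Jun fell from day 4 to day 8 in WT (-0.66 ± 0.19, adjusted p = 0.016). At day 12 against day 0 of DKO cells Jun was at -0.46 ± 0.19 (adjusted p = 0.055), and it passed both thresholds without day 0 replicate 3 (-0.66, adjusted p = 0.0077) or day 12 replicate 2 (-0.62, adjusted p = 0.026).

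**Figure D3:**
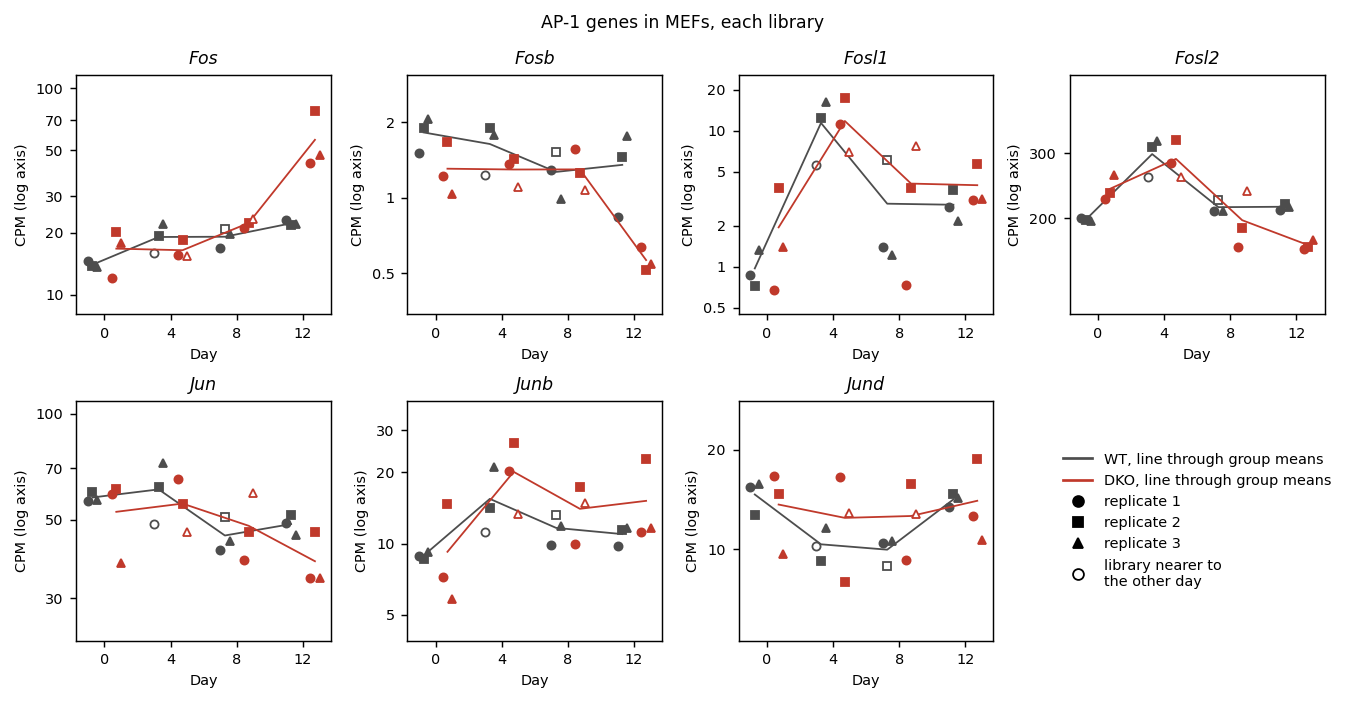
CPM of each AP-1 gene (y axis, log scale) in every MEF library at days 0, 4, 8 and 12 (x axis), with WT in gray and DKO in red, and lines through the means of 3 libraries. Open symbols are the 4 libraries of days 4 and 8 nearer to the other day; Fosl1 of these libraries lies between 5.57 and 7.69 CPM, and Fos of DKO day 12 lies at 43.6 to 77.5 CPM.

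In MEFs, from day 0 to day 4, 2 of the 7 members were called in WT (31.6% of all tested genes called) and 2 in DKO cells (28.3%). Without the 4 libraries the counts were 3 in WT (34%) and 2 in DKO cells (29.6%). From day 4 to day 8 edgeR called 0 members in WT, where 0.406% of all genes were called and 3 members had an unadjusted p under 0.05, and 0 in DKO cells (0.341% of all genes, 3 members unadjusted). DESeq2 called 0 and 0, and limma-voom 0 and 1. Without the 4 libraries the calls were 3 in WT (19.9% of all genes) and 2 in DKO cells (14%), so both the members and all genes depend on these libraries at this step. From day 8 to day 12, 0 members were called in WT (19.6%) and 2 in DKO cells (23.9%). In that WT step 0 members had an unadjusted p under 0.05, and DESeq2 and limma-voom called 0. Day 12 against day 0 gave 1 member in WT (24%) and 2 in DKO cells (28.3%), and without the 4 libraries 2 in WT (25.8%), where Fosl1 joined Fos (1.56 ± 0.59, adjusted p = 0.044). Summed macrophage markers were highest at WT day 0 (7199 to 9346 CPM) and lower at DKO day 12 (3147 to 3622 CPM), and their part was not tested.

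**Figure D4:**
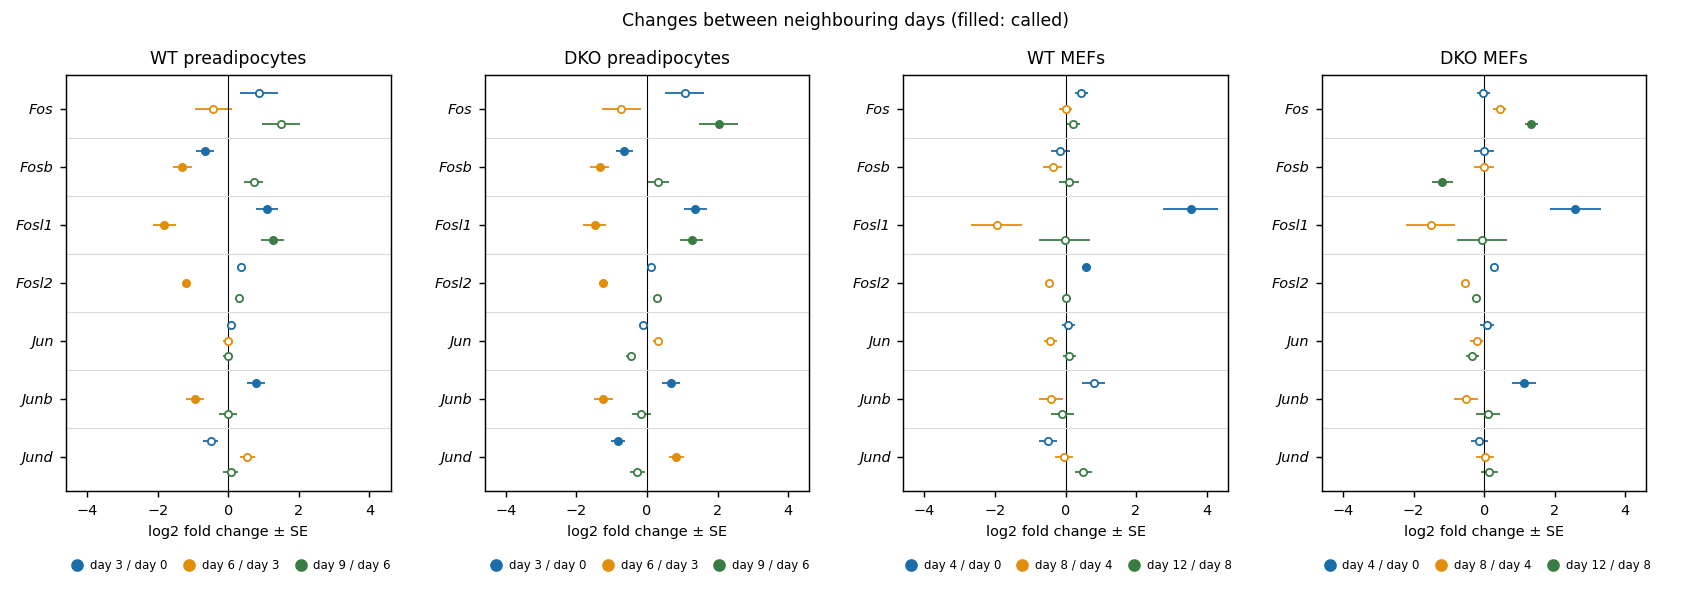
Log2 fold change ± SE (x axis) of each AP-1 gene (y axis) between neighboring days in WT and DKO preadipocytes and MEFs, all libraries, edgeR. Filled points were called (adjusted p under 0.05 and at least 1.5-fold). In preadipocytes the step from day 3 to day 6 holds called points left of 0 for Fosb, Fosl1, Fosl2 and Junb in both genotypes, and the largest point is Fosl1 in WT MEFs at 3.55.

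The DKO effect was tested at each day on its own, in the 6 libraries of that day. In preadipocytes 0 of the 28 pairs of member and day were called by edgeR, 5 had an unadjusted p under 0.05, and DESeq2 and limma-voom called 0. The share of all tested genes called was 0.218% (day 0), 0.337% (day 3), 11.6% (day 6) and 1.24% (day 9). Fos was lower in DKO cells on average at each day, by -0.73 ± 0.20 at day 0 (adjusted p = 0.44), -0.51 ± 0.14 at day 3 (0.20), -0.86 ± 0.58 at day 6 (0.33) and -0.32 ± 0.68 at day 9 (0.80) on the log2 scale, and at days 0 and 3 every DKO library was below every WT library. Junb was at -0.48 ± 0.17 at day 6 (adjusted p = 0.076), and it passed without DKO day 6 replicate 1 (-0.66, adjusted p = 0.022). Fosb was at -0.74 ± 0.25 at day 9 (adjusted p = 0.12), with every DKO library below every WT library, and was not called. Jun at day 9 had an adjusted p of 0.048 (-0.35 ± 0.06), with 45.9, 49.4 and 44.8 CPM in WT and 37.6, 37.9 and 36.8 CPM in DKO cells, but was under the fold threshold. Macrophage markers summed to 5890 to 10023 CPM in WT and 2198 to 4843 CPM in DKO cells at day 6, and to 3172 to 6422 and 1427 to 3076 CPM at day 9, so they differed in the same comparisons, and their part was not tested.

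In MEFs the DKO effect on the members was called at day 12 alone. Fos was 2.49-fold higher in DKO cells (1.31 ± 0.27, adjusted p = 0.024) and Fosb 2.42-fold lower (-1.28 ± 0.36, adjusted p = 0.013), both without overlap of the libraries given above. Fosl2 (-0.37 ± 0.04, adjusted p = 3.2e-06) and Jun (-0.38 ± 0.12, adjusted p = 0.043) passed the p-value and not the fold threshold. These 2 calls of 7 stand beside 7.98% of all tested genes. The WT libraries of this day hardly differ from each other (chi-square per degree of freedom of 2.18 to 3.58), nor do DKO replicates 1 and 3 (3.01). DKO replicate 2 differed more from these (12.6 and 11.9). The p-values of this day rest in part on that small spread. Neither call was robust to leaving out a WT library. The Fos call was lost without WT replicate 1 (1.33, adjusted p = 0.074), 2 (1.297, adjusted p = 0.088) or 3 (1.31, adjusted p = 0.085), although its size hardly moved, and the Fosb call without WT replicate 2 (-1.22, adjusted p = 0.057) or 3 (-1.05, adjusted p = 0.084). At day 0 (0.102% of all genes called), day 4 (0.0905%) and day 8 (0.0595%) 0 members were called by edgeR, DESeq2 or limma-voom, with 1, 0 and 0 unadjusted p under 0.05. Without the 4 libraries 0 members were called at day 4 (1.12% of all genes) or day 8 (4%), the nearest being Fosl2 at day 8 (-0.25 ± 0.07, adjusted p = 0.066).

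**Figure D5:**
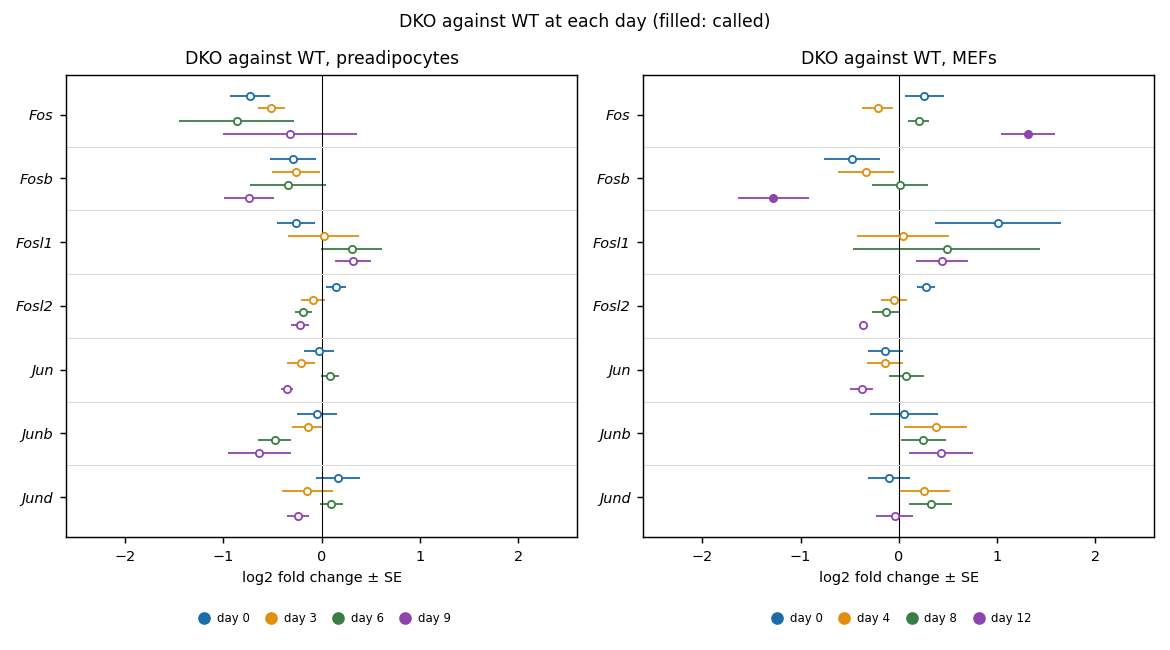
Log2 fold change ± SE of DKO against WT (x axis) for each AP-1 gene (y axis) at each day in preadipocytes (left) and MEFs (right), 3 against 3 libraries, edgeR. Filled points were called; the filled points are Fos (1.31) and Fosb (-1.28) in MEFs at day 12.

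Whether the DKO effect differed between neighboring days was tested as an interaction, with an adjusted p under 0.05 and no fold threshold. In preadipocytes 0 of 21 pairs of member and step were called by edgeR, DESeq2 or limma-voom, and 1 had an unadjusted p under 0.05. The shares of all genes called were 0.0948% (days 0 to 3), 0.628% (days 3 to 6) and 0% (days 6 to 9). In MEFs 0 of 21 were called by the 3 tools and 2 had an unadjusted p under 0.05, with 0.00588% of all genes called (days 0 to 4), 0% (days 4 to 8) and 0.00588% (days 8 to 12). Those 2 were Fos and Fosb from day 8 to day 12, where the DKO effect moved by 1.12 ± 0.26 (adjusted p = 0.74) and -1.28 ± 0.41 (adjusted p = 0.88). They were 1.09 ± 0.31 and -1.56 ± 0.46 (adjusted p = 0.69 for both) without the 4 libraries, and 0 of 21 were then called. So the day 12 effects are not shown to be particular to that day.

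Before induction Fosl1, Junb and Fosb were higher in preadipocytes than in MEFs. WT preadipocytes and WT MEFs of day 0 were scaled together and compared, and cell type, preparation and expression table cannot be told apart here. Fosl1 read 16.4, 21.9 and 15.6 CPM in preadipocytes and 0.858, 0.704 and 1.29 CPM in MEFs, 18.9-fold higher in preadipocytes (4.24 ± 0.24, adjusted p = 5.1e-06). Junb read 45.0, 32.1 and 31.7 CPM against 8.71, 8.41 and 9.06 CPM, 4.16-fold higher (2.06 ± 0.15, adjusted p = 1.5e-05). Both genes were higher in every preadipocyte library. Fosb was 1.61-fold higher (0.69 ± 0.22, adjusted p = 0.026), a call lost without MEF replicate 1 (adjusted p = 0.093), MEF replicate 2 (0.051) or preadipocyte replicate 3 (0.065). These 3 of 7 stand beside 38.6% of all genes. Fosl2 (0.34 ± 0.05, adjusted p = 8.7e-04) and Jund (0.48 ± 0.17, adjusted p = 0.038) were under the fold threshold, although Jund passed both without preadipocyte replicate 2 (0.64, adjusted p = 0.0073). Fos was at 0.18 ± 0.14 (adjusted p = 0.28) and Jun at -0.17 ± 0.13 (adjusted p = 0.28). Macrophage markers summed to 133 to 476 CPM in these preadipocytes and 7199 to 9346 CPM in these MEFs, and their part was not tested.

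The other bZIP genes that can pair with AP-1 proteins were followed as a list of 18. Of 16 tested in WT preadipocytes, 0 rose and 5 fell from day 0 to day 3, where 23.2% of all tested genes were called in either direction. Those that fell included Ddit3 (CHOP, -1.36 ± 0.24), Nfe2l1 (-0.97 ± 0.11) and Atf5 (-0.95 ± 0.17). From day 3 to day 6, 4 rose and 2 fell, beside 45.3% of all genes called. Those that rose included Batf (3.90 ± 0.75) and Maf (1.77 ± 0.39), which are known from lymphocytes and macrophages, and those that fell were Maff (-1.07 ± 0.22) and Mafk (-0.79 ± 0.20), small Maf proteins without an activation domain. The median log2 fold change of the list was -0.38 and 0.24 at these steps, beside 0.00 and -0.03 for all genes. Maff rose again from day 6 to day 9 (1.31 ± 0.22), together with Jdp2, a repressor that pairs with Jun (1.31 ± 0.21).

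Other immediate-early genes went different ways at the same steps. Of 18 tested in WT preadipocytes, 3 rose and 3 fell from day 0 to day 3 (23.2% of all genes called). Myc (1.21 ± 0.14), Egr2 (1.89 ± 0.29) and Sik1, a kinase gene that answers cAMP (1.47 ± 0.24), rose, while the YAP and serum response targets Ccn2 (-2.72 ± 0.75) and Ccn1 (-1.03 ± 0.40) and Klf6 (-0.87 ± 0.13) fell. From day 3 to day 6 (45.3% of all genes), 1 rose and 9 fell, led by the orphan receptor genes Nr4a2 (-2.68 ± 0.23) and Nr4a1 (-2.09 ± 0.30), with a list median of -0.72. In WT MEFs from day 0 to day 4, 13 of 18 rose and 1 fell (31.6% of all genes called), led by Nr4a1 (2.71 ± 0.18), Myc (1.62 ± 0.16) and Nr4a2 (2.14 ± 0.26), with a median of 0.88 beside 0.04 for all genes. In DKO MEFs from day 8 to day 12, the step at which Fos rose, 5 rose and 4 fell (23.9% of all genes called), with Klf6 (1.02 ± 0.16), Egr1 (1.05 ± 0.19) and Ccn2 (2.65 ± 0.55) up and Nr4a1 (-1.75 ± 0.17), Myc (-1.22 ± 0.16) and Nr4a3 (-2.62 ± 0.39) down. Against WT at day 12 (7.98% of all genes called), 2 of 18 were higher in DKO MEFs, Arc (0.97 ± 0.18) and Zfp36 (0.70 ± 0.10), and Nr4a2 was lower (-0.69 ± 0.22).

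The list of 34 genes for kinases, phosphatases and activators upstream of AP-1 moved in both directions. From day 0 to day 3 of WT preadipocytes 1 of 32 tested rose, Crem, whose short product ICER is induced by cAMP (1.29 ± 0.12), and 5 fell, including Mapk3 (ERK1, -0.71 ± 0.07), Srf (-0.63 ± 0.09) and Mapk11 (-1.26 ± 0.25). From day 3 to day 6, 5 rose and 5 fell, the latter led by Elk3 (-1.75 ± 0.20), Mapk7 (-0.90 ± 0.12) and Crem (-0.77 ± 0.12). In WT MEFs from day 0 to day 4, 8 of 33 rose and 6 fell, with Crem (1.95 ± 0.30), Mapk8 (JNK1, 0.96 ± 0.10) and the phosphatase gene Dusp4 (1.60 ± 0.25) up. The list medians were -0.01, -0.02 and 0.15 at these 3 steps, beside 0.00, -0.03 and 0.04 for all genes, of which 23.2%, 45.3% and 31.6% were called.

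Genes with known AP-1 sites were the last list, and no set test was run on it. Of 27 tested in WT cells, 3 rose and 15 fell from day 0 to day 3, and 6 rose and 18 fell from day 3 to day 6 (23.2% and 45.3% of all genes called), with list medians of -1.09 and -1.08 beside 0.00 and -0.03 for all genes. The invasion genes Plaur (-3.06 ± 0.29), Plau (-1.78 ± 0.20) and Mmp13 (-4.15 ± 0.50) led the first fall, and Cd44 (-3.00 ± 0.24), Ptgs2 (-5.14 ± 0.43) and Lif (-3.28 ± 0.32) the second. Those that rose were led in the first step by Fabp4 (6.26 ± 0.53) and Pparg (2.40 ± 0.26), which are also adipocyte markers. In MEFs from day 0 to day 4, 7 of 27 rose and 11 fell in WT cells (31.6% of all genes called), with a median of -0.31. Between DKO and WT preadipocytes at day 6, 2 of 23 tested were higher and 11 lower in DKO cells (11.6% of all genes called), with a median of -0.64 beside -0.01 for all genes, and Ccl2 (-1.89), Ptgs2 (-1.58) and Ccnd1 (-1.23) were among the lower ones. At day 12 of MEFs, 4 of 26 were higher and 6 lower in DKO cells (7.98% of all genes called), among them Mmp13 (-1.22 ± 0.07), Mmp3 (-1.06 ± 0.07) and Ptgs2 (-1.56 ± 0.18). Ccl2 is also made by macrophages, and the summed level of their markers was lower in these DKO preadipocytes, as given above. Of the 8 preadipocyte and fibroblast markers 3 were lower and 1 higher in the same comparison (median -0.79), and from day 3 to day 6 of WT cells 5 of 8 fell (median -1.30). The part of these cells in the list was not tested.

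Genes with the most similar profile were found by Pearson's r of log2(CPM + 0.5) over all 48 libraries, after the mean of each cell type was taken off, among 16035 genes. The libraries share days and genotypes, so r is a description. Fosl2 was closest to Zfp52 (r = 0.936), Sestd1 (0.931) and Glis3 (0.927), Fosl1 to Pcbp3 (0.883), Micall1 (0.875) and Sphk1 (0.873), and Fosb to Tes (0.869), Thbs2 (0.865) and Traf7 (0.864). Fos was closest to the clock repressor gene Cry2 (0.698), the glucocorticoid-induced kinase gene Sgk1 (0.677) and 4930486L24Rik (0.676), Jun to Lpin2 (0.672), Glrb (0.650) and Btbd11 (0.643), Junb to Gm16062 (0.777), Tnfrsf1a (0.768) and Ggt7 (0.766), and Jund to Rex1bd (0.786), Tesk1 (0.697) and Tfeb (0.691). Within the family the highest r was between Fosb and Fosl2 (0.721), followed by Fosl1 and Junb (0.599) and Fosl2 and Junb (0.591), and the lowest between Fosl2 and Jund (-0.462). Fos correlated with no other member above 0.302.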

How the data were processed

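The 48 libraries were sequenced as 50 bp paired-end reads on a HiSeq instrument. The methods name a stranded total RNA kit, whereas the labels name polyA RNA. Per the labels, the authors used bcl2fastq 2.17, cutadapt 1.18, STAR 2.7.0f and RSEM 1.3.0 on mm10, and they deposited expected counts per gene (RSEM estimates that need not be whole), in 1 table per cell type. Expected counts were rounded to whole numbers.

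Genes were filtered with filterByExpr, scaled with TMM and tested with edgeR 4.0.16 (quasi-likelihood, robust; R 4.3.3). DKO and WT were compared at each day in 6 libraries. Days were compared, and interactions of genotype and day estimated, in 1 fit of the 24 libraries of a cell type. P-values were adjusted by the Benjamini-Hochberg method over all tested genes, and calls needed a 1.5-fold change or more with an adjusted p under 0.05. The tests were checked on simulated preadipocyte counts, where 2.91% (genotype), 5.66% (days) and 3.88% (interaction) of calls were false. The simulated libraries varied independently, unlike same-numbered libraries here, so this does not give the error rate in these data. Depth ranges stand in the report. Counts of a few reads, as for Fosb, are the least precise.

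The members and lists were chosen with earlier results of these data known. All members are described. From a list, at most the 3 called genes of smallest p in each direction were named, except 1 that is not reported here. Followed through the alternatives were the results with an unadjusted p under 0.05. Alternatives were DESeq2 1.42.0, limma-voom (limma 3.58.1), other scaling, filters and thresholds, fits of 2 days or of all days, a replicate block and each library left out. Leaving out 4 MEF libraries together, and blocked fits of single steps, were chosen after seeing the data. Same-numbered libraries deviated together (every r above 0.1) in 3 of 16 comparisons of days within a genotype, with r of 0.13 to 0.453 (WT days 6 and 9), 0.368 to 0.459 (DKO days 6 and 9) and 0.407 to 0.562 (DKO days 0 and 3), and in 0 of 8 comparisons of WT with DKO. The pairing comes from the data, since the labels give numbers alone, and how often it arises by chance was not tested.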

Additional observations from a re-analysis of the deposited data

How the results depend on the processing

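Of 75 single results followed through the alternatives, 36 kept their direction and their side of the thresholds in every one, and 0 reversed. Scaling by library size alone moved the median of all genes by -0.27 (DKO preadipocytes, day 9 against day 0) to 0.12 (WT MEFs, day 4 against day 0) on the log2 scale. Without the fold threshold the count of member calls was 1 in place of 0 (DKO against WT, preadipocytes), 4 in place of 2 (DKO against WT, MEFs) and 5 in place of 3 (WT preadipocytes against WT MEFs), by construction of that setting. With the replicate block in the comparison of DKO with WT it was 1 in preadipocytes and 1 in MEFs, although numbers did not pair these libraries, and the Fos call at day 12 was lost (adjusted p = 0.06). Without the 4 MEF libraries the count over days of WT MEFs was 8 in place of 3. The share of all genes called from day 4 to day 8 of WT MEFs went from 0.406% to 19.9% with the same change. Leaving out each library gave counts of 0 to 1 (DKO against WT, preadipocytes), 8 to 13 (days of WT preadipocytes), 13 to 16 (DKO), 0 to 2 (DKO against WT, MEFs), 2 to 4 (days of WT MEFs), 5 to 7 (DKO) and 2 to 4 (cell types), and 0 to 0 for the change of the DKO effect between days in both cell types. The shares of all genes called are not given beside the counts of the other settings, so those counts describe the settings and are not results about the members. The cause of these shifts was not tested. Over all genes, the number called differed by more than 1.5 times between settings in 7 of 8 comparisons of genotypes, 2 of 16 of days and 6 of 6 of the DKO effect between days, and 0 of 1 of cell types. The blocked fits of single steps changed no member call other than those given in the report.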
